A study of Mus musculus with 32 samples.

Results

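The genes of glycolysis and of the response to low oxygen were followed through 4 murine Ba/F3 pro-B cell lines on 32 Affymetrix mouse Gene ST arrays, 8 per line. The set holds 37 genes, taken by their symbols: glucose and lactate carriers, glycolytic enzymes, the kinases that set glycolytic flux, oxygen sensors and targets of the hypoxia inducible factor. Of these, 34 had a probe set assigned to their symbol alone, out of 19938 such genes on the array. Gpi1, Gapdh and Eno1 had none and were not analysed here. The 34 measured genes have 43 probe sets, and each gene is given by its brightest one. Values are log2 RMA values, so a difference of 1 is a doubling of signal.

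Glycolysis splits glucose into pyruvate in the cytosol. Carriers of the SLC2A family bring glucose in, hexokinase traps it as glucose 6-phosphate, and lactate dehydrogenase with the SLC16A carriers disposes of the end product when pyruvate does not enter mitochondria. The hypoxia inducible factor, a dimer of HIF-1α and ARNT, is marked for degradation by prolyl hydroxylases while oxygen is present, and in its absence binds a short DNA core and raises most genes of this set. Cytokines raise several of the same genes in normal oxygen, and Ba/F3 cells live only with a cytokine signal.

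All lines descend from Ba/F3 cells that carry transduced human gp130 and were grown in Hyper-IL-6, a fusion of IL-6 with its soluble receptor. Ba/F3-gp130, called the parental line here, carries nothing further. Ba/F3-IL-12Rβ1-IL-23R, the natural receptor line, has both receptor chains for IL-23. The heterodimer line, Ba/F3-SyCyR(IL-23/2A), has a synthetic pair in which nanobodies against GFP and mCherry replace the outer parts of these chains. In Ba/F3-SyCyR(IL-23R), the IL-23R-only line, the synthetic receptor has the inner part of IL-23R alone. The protocol names 3 h in serum-free medium and then 1 h with 100 ng/ml of GFP-mCherry, HmIL-23 or 3xGFP. As the control, the study's methods name supernatant of untransfected CHO-K1 cells. The receptors came in by retroviral transduction, and each is represented by 1 line that was selected and cultured on its own, so receptor and line cannot be told apart. Arrays are numbered 13 to 20 in every line. No label states whether an array received a ligand or the control, which ligand it was, or what an odd or an even number stands for. Odd and even arrays were compared within each line, a split chosen with earlier results of these data known, and no stimulated or control group is named.

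Array medians lay between 6.94 and 7.18, and arrays of a line correlated at 0.988 or above. Of 17 measured pro-B markers, 6 exceeded 7.04, the median of all probe set means, in each line. Cd79a was at 9.17 to 10.77 over all arrays, whereas Ebf1, Pax5 and Vpreb1, defining genes of the stage, had no line median above 7.04. Of 14 granulocyte and macrophage markers, 6 exceeded it in the parental line and 9 in the IL-23R-only line. Socs3, a feedback inhibitor induced by STAT3, lay between 11.75 and 13.01 on the odd arrays of the 3 receptor lines and between 8.20 and 9.21 on their even arrays, and between 8.44 and 8.66 on all arrays of the parental line. The arrays were made from bulk RNA, in which fewer expressing cells and less RNA per cell cannot be told apart.

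The letters that the hypoxia inducible factor is known to bind, ACGTG, stood within 250 bases upstream of the start of 20 of the 31 genes with a promoter in the RefSeq table for GRCm38.p6, or 64.5%, on either strand. Of all 27025 genes in that table, 18.5% held them. The related core GCGTG was found in 21 of 31, or 67.7%, against 30.9% of all genes, and the STAT core TTCNNNGAA in 3 of 31, or 9.68%, against 8.13%. These are matches of letters, on both strands, and the table had no entry for Slc2a3, Ndrg1 and Bnip3l. The promoters below belong to the pair of genes that differed between odd and even arrays (Hk2, Slc2a1), a pair that was raised on part of the arrays of the IL-23R-only line (Bnip3, P4ha1), and a gene with the same letters that passed none of the 11 comparisons (Ldha, at 1 of its 2 listed starts). Each shows the 250 bases before the start, 5′ to 3′ on the strand of the gene, with ACGTG or its complement CACGT in capitals. The run CACGTG holds both overlapping.
Hk2, chr6:82774455-82774704, minus strand: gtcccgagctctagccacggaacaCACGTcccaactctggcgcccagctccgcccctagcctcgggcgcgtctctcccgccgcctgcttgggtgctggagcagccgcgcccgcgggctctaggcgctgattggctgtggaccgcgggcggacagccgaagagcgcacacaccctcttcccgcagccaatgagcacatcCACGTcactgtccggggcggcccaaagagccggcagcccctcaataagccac
Slc2a1, chr4:119108495-119108744, plus strand: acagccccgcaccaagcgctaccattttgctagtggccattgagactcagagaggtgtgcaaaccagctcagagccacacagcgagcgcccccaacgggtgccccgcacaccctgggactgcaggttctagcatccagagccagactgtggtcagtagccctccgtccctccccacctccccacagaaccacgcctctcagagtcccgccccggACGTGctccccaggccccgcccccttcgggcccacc
Bnip3, chr7:138909507-138909756, minus strand: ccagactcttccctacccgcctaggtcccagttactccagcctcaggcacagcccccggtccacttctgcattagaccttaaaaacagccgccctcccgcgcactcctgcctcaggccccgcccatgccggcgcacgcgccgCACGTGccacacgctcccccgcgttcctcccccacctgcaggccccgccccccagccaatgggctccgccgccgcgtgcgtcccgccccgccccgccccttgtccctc
P4ha1, chr10:59323046-59323295, plus strand: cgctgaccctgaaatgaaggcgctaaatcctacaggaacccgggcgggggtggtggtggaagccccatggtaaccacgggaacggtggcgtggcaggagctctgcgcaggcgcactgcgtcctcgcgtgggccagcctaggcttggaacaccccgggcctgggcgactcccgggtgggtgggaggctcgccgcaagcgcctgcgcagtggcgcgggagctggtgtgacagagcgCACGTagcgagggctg
Ldha, chr7:46845554-46845803, plus strand: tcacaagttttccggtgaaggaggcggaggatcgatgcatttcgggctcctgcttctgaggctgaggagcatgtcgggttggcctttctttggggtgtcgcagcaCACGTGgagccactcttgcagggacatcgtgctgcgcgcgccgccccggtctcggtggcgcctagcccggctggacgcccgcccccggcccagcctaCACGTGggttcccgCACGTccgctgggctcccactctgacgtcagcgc
Hk2 had 2 separate places with these letters, Ldha 3, and the others 1 each.

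The clearest difference in the set was in the first steps of glucose use. Hk2, the inducible hexokinase, and Slc2a1, the widely expressed glucose transporter GLUT1, were higher on the odd than on the even arrays of the natural receptor line and the heterodimer line. In the parental line the same split showed no such difference. Hk2 on arrays 13, 15, 17 and 19 of the natural receptor line read 10.64, 10.88, 10.44 and 10.54, and on arrays 14, 16, 18 and 20 it read 9.33, 9.57, 9.22 and 9.17. Every odd array lay above every even one, and the difference was 1.30 (SE 0.15, adjusted p = 1.5e-07 from limma) or 2.47-fold. In the heterodimer line the odd arrays read 10.69, 10.61, 10.44 and 10.56 and the even ones 9.39, 9.22, 8.95 and 9.22. The groups again did not overlap, with a difference of 1.38 (SE 0.15, adjusted p = 9.8e-08 from limma). The parental line read 9.41, 9.30, 8.84 and 9.12 on odd and 9.48, 9.21, 8.82 and 9.12 on even arrays, a difference of 0.01 (SE 0.15, adjusted p = 1 from limma).

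Slc2a1 moved with Hk2 in both lines. Its odd arrays in the natural receptor line read 11.03, 11.03, 10.93 and 11.14, and its even arrays 10.12, 10.11, 10.27 and 10.25. The difference was 0.84 (SE 0.09, adjusted p = 1.1e-07 from limma) or 1.80-fold, with no overlap. In the heterodimer line the odd arrays read 11.48, 11.06, 11.18 and 11.24 and the even ones 10.46, 10.40, 10.28 and 10.44, a difference of 0.85 (SE 0.09, adjusted p = 2e-07 from limma). All arrays of the parental line fell between 10.18 and 10.32, and the even arrays of the natural receptor line between 10.11 and 10.27. The odd-even difference of the synthetic heterodimer line minus that of the natural receptor line was 0.08 for Hk2 (95% confidence interval -0.34 to 0.50) and 0.00 for Slc2a1 (-0.26 to 0.27), and sizes within these intervals cannot be told apart here.

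**Figure D1:**
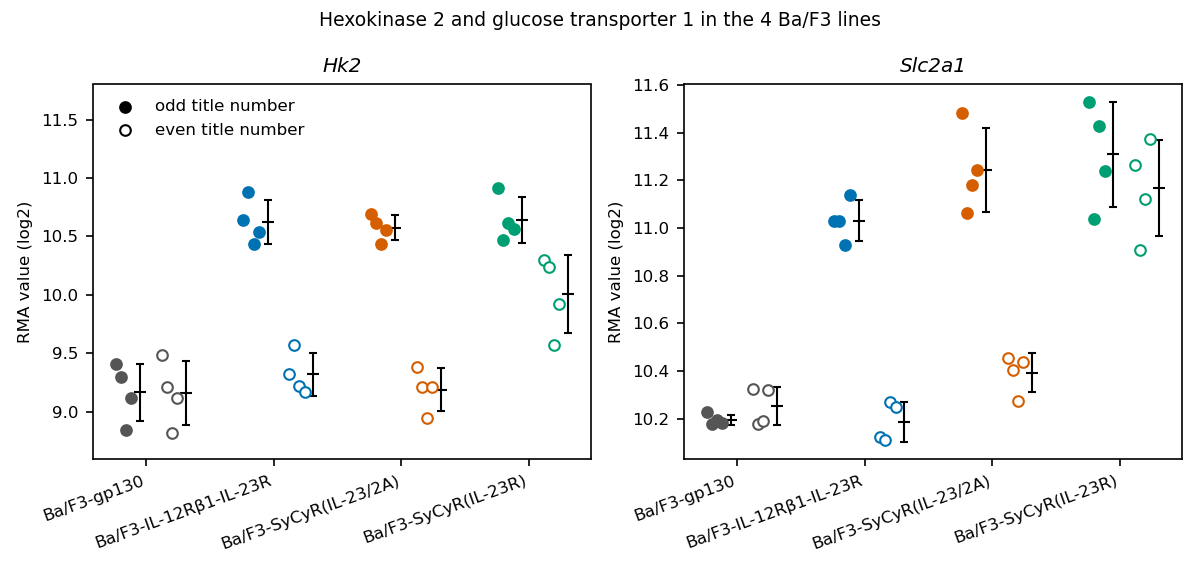
RMA values (log2) of Hk2 and Slc2a1 in the 4 Ba/F3 lines, with filled points for odd and open points for even title numbers and the mean ± SD of 4 arrays beside them. In the natural receptor line and the heterodimer line the odd arrays lie above all even ones, and in the IL-23R-only line the even arrays are high as well.

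The IL-23R-only line showed another pattern, in which the even arrays were high for both genes too. Hk2 read 10.92, 10.47, 10.61 and 10.57 on odd and 10.30, 10.24, 9.57 and 9.93 on even arrays, which did not overlap. The difference was 0.63 (SE 0.15, adjusted p = 0.077 from limma), and it passed with the title number as a random block (adjusted p = 0.022). It passed more clearly in limma with adjacent numbers as a block (adjusted p = 1.9e-04 fixed, 0.0044 random within the line). Slc2a1 read 11.53, 11.04, 11.43 and 11.24 on odd and 11.26, 10.91, 11.12 and 11.37 on even arrays, which overlapped, with a difference of 0.14 (SE 0.09, adjusted p = 1 from limma). Set against the heterodimer line, the odd-even difference of Slc2a1 was smaller by 0.71 (-0.71, SE 0.13, adjusted p = 0.011 from limma). It did not pass without arrays 17 and 18 of every line (-0.74, adjusted p = 0.13) or when each array was centred on its median (-0.69, adjusted p = 0.1). For Hk2 it was -0.75 (SE 0.21, adjusted p = 0.51 from limma; 0.047 with the number as a random block).

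In the fit without a block, Hk2 and Slc2a1 were the 2 of 34 genes that passed between odd and even arrays in the natural receptor line. The same 2 passed in the heterodimer line, and both were higher on odd arrays. Over all probe sets tested, 1.96% passed in that direction and 1.16% in the other in the first line, and 0.846% and 0.107% in the second. An unadjusted p under 0.05 from limma was found for 9 of the 34 genes in the first line and 3 in the second. The share of all probe sets at that unadjusted limit was not counted. These counts and the unadjusted ones below thus have no background beside them. None of the 34 passed in the IL-23R-only line without a block, where 0.171% of all probe sets were higher and 0.00427% lower. There 1 gene (Hk2) had an unadjusted p under 0.05. In the parental line, 0% of all probe sets passed with limma, and 0 of the 34 genes had an unadjusted p under 0.05. Of the comparisons of odd-even differences, the synthetic heterodimer against the natural receptor gave 0 genes, also 0 at an unadjusted p under 0.05, with 0.00854% of all probe sets larger and 0.103% smaller. The synthetic IL-23R receptor against the heterodimer gave 1 gene, Slc2a1, which was smaller, as were 0.0812% of all probe sets, while 0% were larger. At an unadjusted p under 0.05 from limma it gave 2 genes.

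Further members leaned the same way in the natural receptor line without passing in the fit without a block. Slc2a3, the high-affinity glucose transporter GLUT3, read 11.66, 11.79, 11.15 and 11.66 on odd and 10.98, 11.37, 10.49 and 11.21 on even arrays. The groups overlapped and the difference was 0.55 (SE 0.20, adjusted p = 0.14 from limma). Vegfa, which encodes the angiogenic factor VEGF-A, differed by 0.45 (SE 0.13, adjusted p = 0.058), and Pfkfb3, the kinase whose product activates phosphofructokinase, by 0.30 (SE 0.09, adjusted p = 0.069). With the title number as a random block 4 genes passed in this line, the added ones being Slc2a3 (adjusted p = 0.047) and Vegfa (adjusted p = 0.03). Shares of all probe sets are not given for this and the other alternative fits, so genes gained there have no background beside them. Without arrays 17 and 18 of every line the same 4 genes passed. Adjacent numbers as a block added Pfkfb3 and Car9, the latter lower on odd arrays by 0.32 (-0.32, adjusted p = 0.13 in limma without a block). With adjacent numbers as a fixed block the adjusted p from limma was 6.4e-06 for Slc2a3 and 6.1e-04 for Vegfa. As a random block within the line they gave 0.026 and 0.0067. In the heterodimer line Slc2a3 differed by 0.34 between odd and even arrays and passed with adjacent numbers as a fixed block (adjusted p = 0.0094 from limma).

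The enzymes below hexokinase showed no comparable difference. In the natural receptor line, Ldha, the lactate dehydrogenase chain, read 13.75, 13.64, 13.80 and 13.79 on odd and 13.71, 13.61, 13.76 and 13.80 on even arrays. Pgk1, phosphoglycerate kinase, was at 12.802 to 12.995 on odd and at 12.788 to 12.997 on even arrays. Their groups overlapped, as did those of Aldoa, the main aldolase, at 13.31 to 13.38 on odd and 13.30 to 13.39 on even arrays. Half-widths of the 95% intervals of these differences had a median of 0.19 over the 34 genes. Hif1a, the oxygen-regulated subunit, had line medians between 10.91 and 11.05, and Bnip3, an inducible mitophagy receptor and classical hypoxia target, differed between odd and even arrays by -0.25 in the natural receptor line and -0.08 in the heterodimer line (adjusted p = 0.52 and 0.95 in limma).

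**Figure D2:**
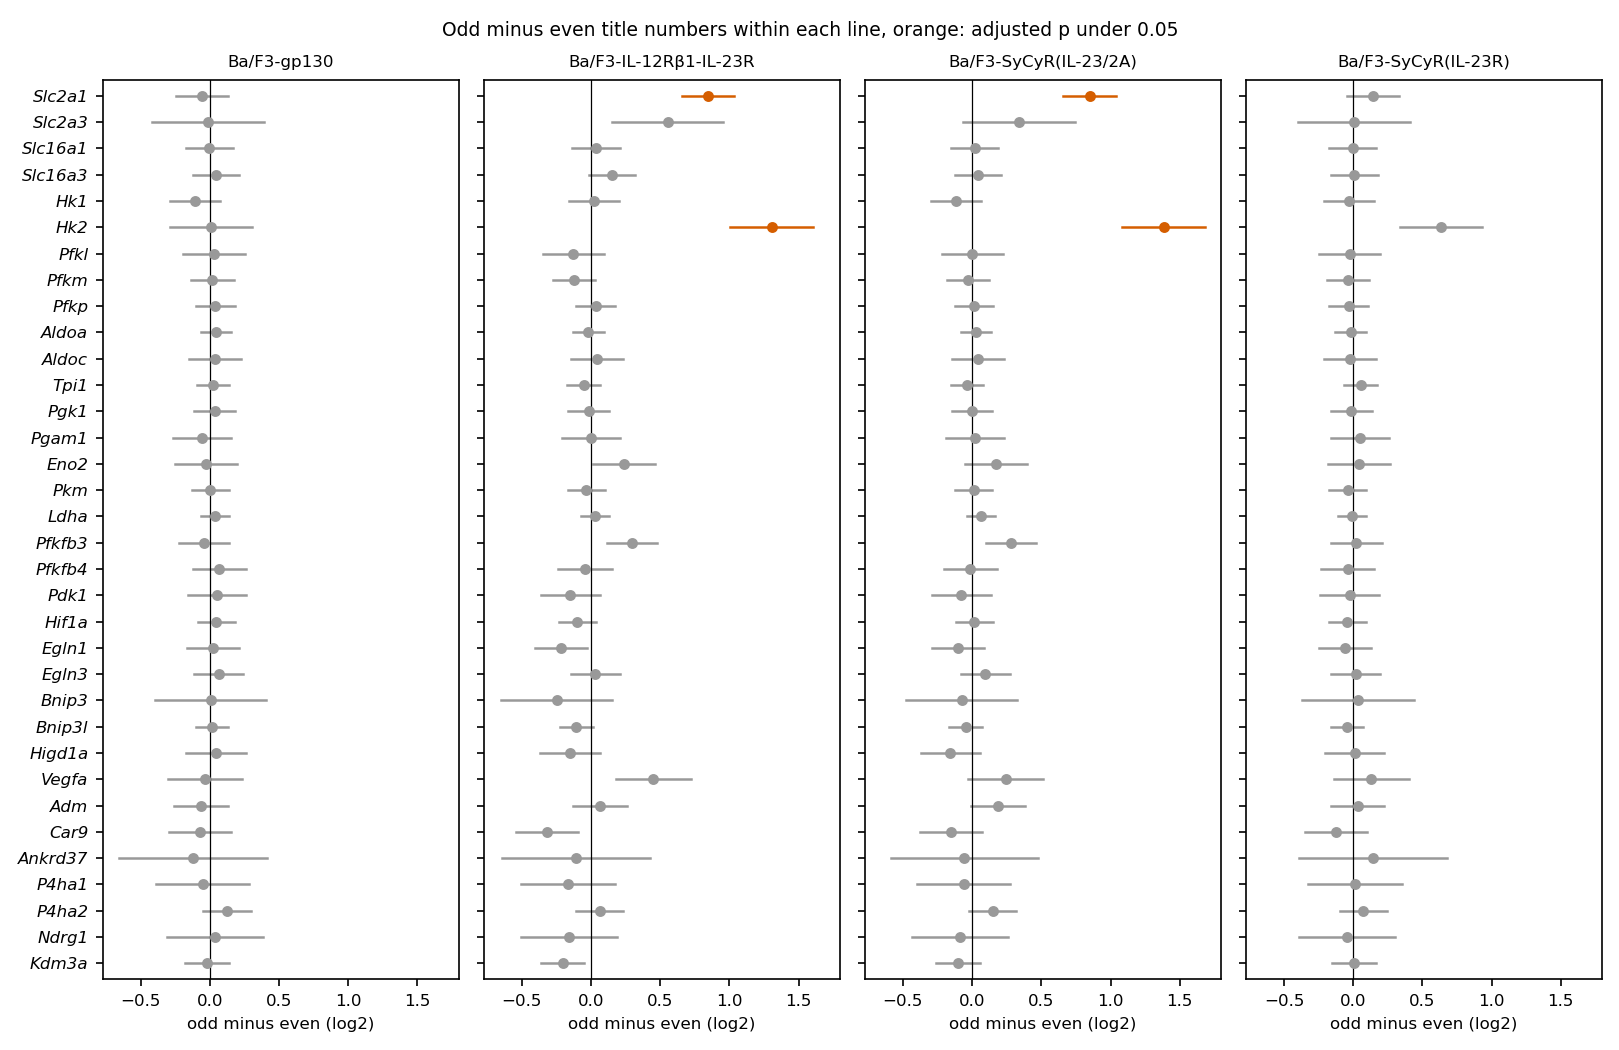
Odd minus even difference (log2, with 95% confidence interval from limma) of the 34 genes within each line, in orange where the adjusted p was under 0.05. Hk2 and Slc2a1 stand out in the natural receptor line and the heterodimer line. In this fit, which has no block, no gene passed in the parental line or the IL-23R-only line.

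Levels between lines were compared as the mean of the odd and even cells. The 3 comparisons with the parental line share its arrays, and those between receptor lines share the heterodimer arrays, so they are not independent. The fit without a block also counts the 8 arrays of a line as independent. Within each line, however, an odd array and the next even one correlated (0.251 to 0.814). The SE and p-values of the level differences from this fit may therefore be too small. With adjacent numbers within a line as a random block, some level calls were lost, as listed at the end. In the order the parental line, the natural receptor line, the heterodimer line and the IL-23R-only line, the mean level of Hk2 was 9.16, 9.97, 9.88 and 10.32, and that of Slc2a1 was 10.22, 10.61, 10.82 and 11.24. Both genes passed in each comparison with the parental line when parity was part of the fit. Fitted by line alone, Hk2 did not pass in the heterodimer line (0.72, adjusted p = 0.1), nor did Slc2a1 in the natural receptor line (0.38, adjusted p = 0.1). On the even arrays alone, an alternative chosen after seeing the data, neither passed in the natural receptor line (0.16 for Hk2, adjusted p = 0.65, and -0.07 for Slc2a1, adjusted p = 0.81) or in the heterodimer line (0.03, adjusted p = 0.98, and 0.14, adjusted p = 0.72). In the IL-23R-only line both still did, at 0.85 (adjusted p = 2.3e-04) and 0.91 (adjusted p = 4.7e-08). All these values are from limma. The shares of all probe sets given below belong to the fit with parity and no block, and none are given for the alternative fits.

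The IL-23R-only line had 9 of 34 genes higher and 2 lower than the parental line, where 6.74% of all probe sets were higher and 8.68% lower. Of the probe sets with a mean above 7.04, which 29 of the 34 genes also exceeded, 22.7% passed. Glucose entry and trapping led, with Hk2 at 1.16 (SE 0.10, adjusted p = 8e-10 from limma) or 2.24-fold, Slc2a1 at 1.01 (SE 0.07, adjusted p = 7.7e-13) or 2.02-fold, and Slc2a3 at 0.68 (SE 0.14, adjusted p = 7.4e-04). Slc2a3 was at 11.21 to 11.85 in this line and at 10.43 to 11.22 in the parental line, ranges that overlapped at their ends. Bnip3 followed at 0.66 (SE 0.14, adjusted p = 9.8e-04), and its second probe set gave 0.68. These 4 exceeded 1.5-fold, as did 1.61% of all probe sets in either direction. Smaller differences were those of Pgam1, the phosphoglycerate mutase, at 0.42 (adjusted p = 7.5e-05), P4ha1, a collagen prolyl hydroxylase subunit, at 0.34 (adjusted p = 0.044), Tpi1 at 0.24, Aldoa at 0.17 and Pfkm at 0.15. Pdk1, the kinase that closes pyruvate dehydrogenase, fell by 0.22 (adjusted p = 0.04), and Pfkp, the platelet-type phosphofructokinase, fell by 0.14 (adjusted p = 0.047). P4ha1, Pfkm, Pdk1 and Pfkp passed in 4 to 6 of 16 fits that left out 1 array. With array medians centred the split became 7 higher and 0 lower, and with the title number as a block 10 and 2, Pfkfb4 being added at 0.19 (adjusted p = 0.018). In this comparison 5 of 14 granulocyte and macrophage markers were higher (Fcgr1, Itgam, Lyz2, Ctsg and Cebpe) and Mpo was lower by 1.89 (-1.89). The log2 of their summed level was 12.62 to 12.77 against 12.36 to 12.63 in the parental line, Csf1r, Adgre1 and Ly6g stayed under 7.04, 1 mast cell and basophil marker was higher (Fcer1a at 1.40) and 2 lower, 1 erythroid and megakaryocyte marker was higher and 2 lower, and their part in the levels of the 34 genes was not tested.

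The natural receptor line had 5 genes higher and 5 lower than the parental line, where 7.91% of all probe sets were higher and 10.5% lower. Of probe sets above 7.04, 28.1% passed. The share of the 34 genes that passed, 29.4%, was near this but also counts the 5 genes under 7.04. All 10 genes that passed were among the 29 above it. Hk2 was higher by 0.81 (SE 0.10, adjusted p = 2.9e-07 from limma) and Slc2a1 by 0.38 (SE 0.07, adjusted p = 3.7e-05), followed by Pfkfb4 at 0.24, Car9, a surface carbonic anhydrase, at 0.22, and Bnip3l, a relative of Bnip3, at 0.14. The lower side held both lactate carriers. Slc16a1, which encodes MCT1, read 11.07 to 11.11 in the parental line and 10.47 to 10.91 in this line without overlap, and fell by 0.37 (SE 0.06, adjusted p = 1.4e-05). Slc16a3, which encodes the export carrier MCT4, fell by 0.23 (SE 0.06, adjusted p = 0.0039). Its mean over all arrays was 7.48 and that of Car9 7.26, both close to 7.04, and neither passed on odd arrays alone. P4ha1 fell by 0.34, Pgam1 by 0.24 and Pfkm by 0.15. Car9, P4ha1 and Pfkm passed in 6 of 16 fits that left out 1 array. Hk2 alone exceeded 1.5-fold, as did 2.97% of all probe sets. Centred arrays gave 3 higher and 5 lower, and the number as a random block gave 8 and 6, adding Slc2a3, Vegfa, Hif1a and Pkm. Of 14 granulocyte and macrophage markers 2 were higher and 4 lower here. Of 11 mast cell and basophil markers 0 were higher and 5 lower (Gata2 at -0.68, Hdc, Mcpt8, Cma1 and Prss34). Of these 5, Hdc, Mcpt8 and Cma1 had medians under 7.04 in both lines, as had Kit and Cpa3. The log2 summed level was 12.36 to 12.84 against 13.09 to 13.33 in the parental line. It mostly reflects Gata2, with a mean over all arrays of 12.775, the next brightest marker being Fcer1a at 8.444. Of 5 erythroid and megakaryocyte markers 2 were higher, Gp9 at 1.60 and Epor at 0.34. The part of these markers in the levels of the 34 genes was not tested.

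The heterodimer line had 5 genes higher and 1 lower than the parental line, where 3.04% of all probe sets were higher and 4.24% lower. Of probe sets above 7.04, 11% passed. Beside Hk2 at 0.72 (SE 0.10, adjusted p = 1.4e-05 from limma) and Slc2a1 at 0.59 (SE 0.07, adjusted p = 1.4e-07), the genes higher were Pfkfb4 at 0.28, Pfkm, the muscle-type phosphofructokinase, at 0.27, and Tpi1, triose phosphate isomerase, at 0.20. Kdm3a, a histone demethylase induced in hypoxia, fell by 0.22 (SE 0.05, adjusted p = 0.0093). Hk2 and Slc2a1 exceeded 1.5-fold, as did 0.739% of all probe sets. On even arrays alone 1 gene passed, Pfkm. The number as a random block gave 6 higher and 2 lower, adding Aldoa and Ndrg1, and as a fixed block it also added Ldha (0.08, adjusted p = 0.046). In this comparison 2 granulocyte and macrophage markers were higher and 0 lower, 1 mast cell and basophil marker was higher and 1 lower, and 1 erythroid and megakaryocyte marker was higher and 0 lower, and their part was not tested.

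**Figure D3:**
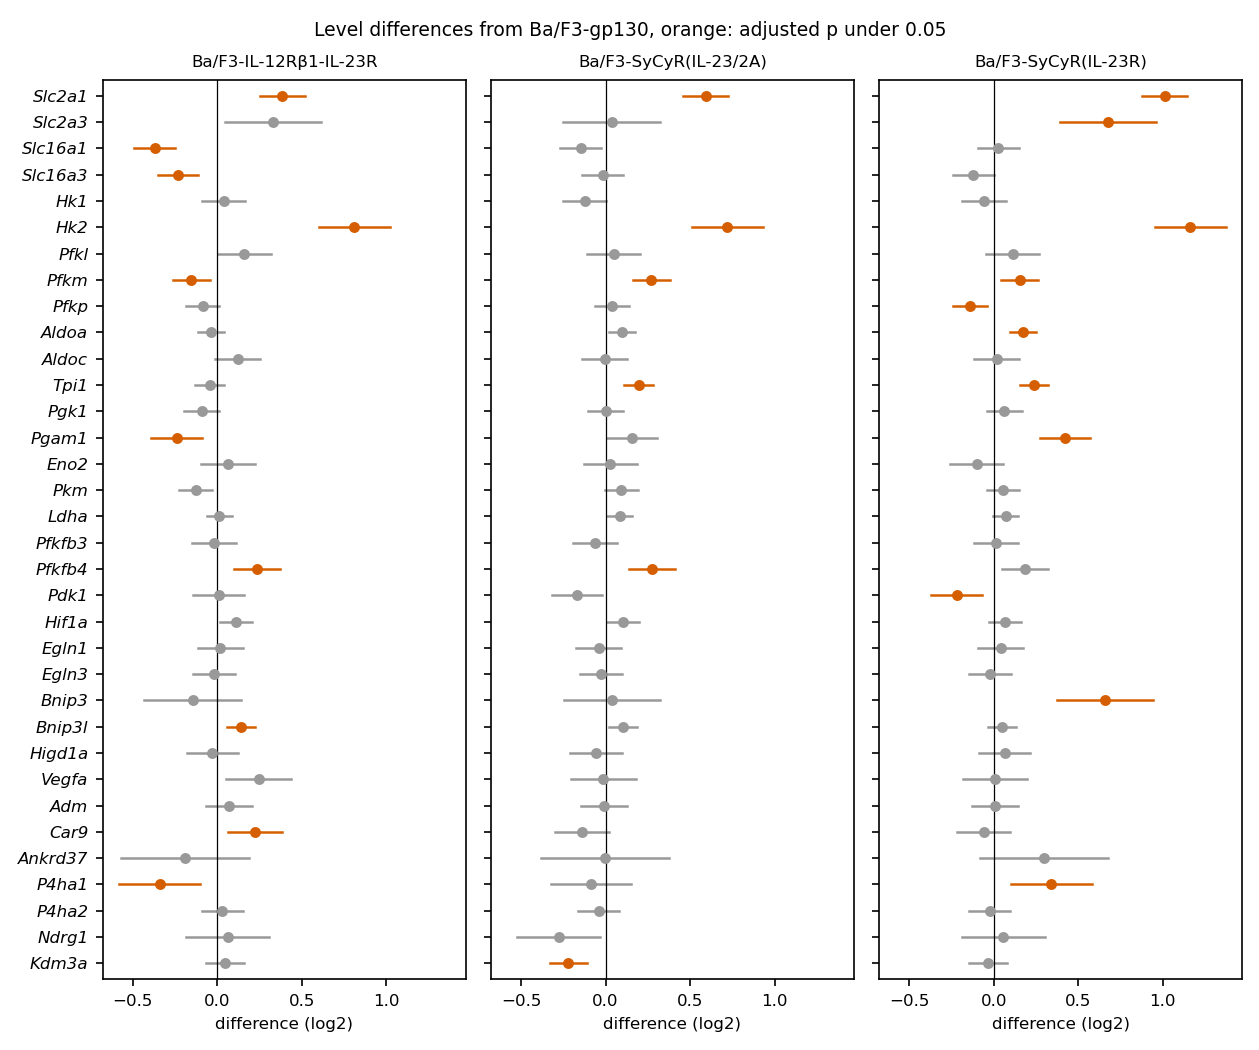
Level difference from the parental line (log2, with 95% confidence interval, limma) of the 34 genes in the 3 receptor lines, in orange where the adjusted p was under 0.05. Hk2 and Slc2a1 lie to the right in all panels, and Slc2a3 and Bnip3 in the IL-23R-only line.

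Between the synthetic receptors, the IL-23R-only line had 7 genes higher and 1 lower than the heterodimer line, where 4.33% of all probe sets were higher and 4.1% lower and 13.1% of those above 7.04 passed. Slc2a3 differed by 0.64 (SE 0.14, adjusted p = 0.0024 from limma), Bnip3 by 0.62 (SE 0.14, adjusted p = 0.0034), Hk2 by 0.44, P4ha1 by 0.43, Slc2a1 by 0.42, Pgam1 by 0.27 and Kdm3a by 0.18, while Pfkp fell by 0.18. Slc2a3 and Bnip3 exceeded 1.5-fold, as did 1.13% of all probe sets. Bnip3, P4ha1, Pgam1 and Kdm3a did not pass without arrays 17 and 18 of every line. Nor did they on even or on odd arrays alone, where fewer arrays enter, and Slc2a3 did not on odd arrays alone. Kdm3a passed in 11 of 16 fits that left out 1 array. For Hk2 and Slc2a1 the difference came with the even arrays, at 0.82 (adjusted p = 6.9e-04) and 0.77 (adjusted p = 1.5e-06), and was 0.07 for both on the odd arrays (adjusted p = 0.93 and 0.87). Fitted by line alone, neither passed here (adjusted p = 0.42 and 0.12), and the difference of Slc2a1 between the heterodimer line and the natural receptor line did not pass either (adjusted p = 0.45). Centred arrays gave 6 higher and 0 lower, and the number as a random block gave 9 and 1, adding Ndrg1 and Slc16a1. In this comparison 5 of 14 granulocyte and macrophage markers were higher (Fcgr1 at 1.76, Itgam at 1.75, Lyz2 at 1.39, Ctsg at 0.98 and Cebpe at 0.38) and Mpo was lower (-1.44). Of the mast cell and basophil markers Fcer1a was higher (0.98) and Prss34 lower (-0.40), and of the erythroid and megakaryocyte markers 1 was higher and 2 lower. Their part in the levels was not tested.

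The heterodimer line against the natural receptor line had 8 genes higher and 3 lower, where 9.68% of all probe sets were higher and 9.23% lower. Of those above 7.04, 29.1% passed. The share of the 34 genes, 32.4%, was near this but again counts the 5 genes under 7.04. All 11 genes that passed were among the 29 above it. Pfkm at 0.42 (SE 0.05, adjusted p = 2.3e-07 from limma) and Pgam1 at 0.40 (SE 0.07, adjusted p = 9.8e-05) led, with Tpi1, Pkm, Slc16a1, Slc16a3, Slc2a1 and Aldoa at 0.13 to 0.24. Car9 fell by 0.36, Ndrg1 by 0.34 and Kdm3a by 0.27. Slc16a3 and Car9, with means over all arrays of 7.48 and 7.26, did not pass here on odd arrays alone. None reached 1.5-fold, against 2.67% of all probe sets, and Ndrg1 passed in 4 of 16 fits that left out 1 array. The random block gave 10 and 6 there, adding P4ha1, Pfkp, Hk1, Slc2a3 and Vegfa. The Hk1 probe set, its brightest, lists 1 accession and no RefSeq transcript, so that call is uncertain. Of the markers, 4 of 14 granulocyte and macrophage genes were higher and 2 lower, 5 of 11 mast cell and basophil genes were higher and 0 lower, and Gp9 alone of the erythroid and megakaryocyte genes passed (-1.71). Their part was not tested.

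Arrays within the IL-23R-only line were not alike for the hypoxia targets. Bnip3 read 12.04, 11.93, 11.97 and 11.90 on arrays 13, 14, 17 and 18, and 10.95, 10.97, 11.22 and 11.24 on arrays 15, 16, 19 and 20. The 4 high arrays lay above every array of the other lines, and the 4 low ones within or next to the range of the parental line, 10.65 to 11.06. P4ha1 read 10.39, 10.09, 10.30 and 10.15 on the former and 9.46, 9.78, 9.60 and 9.68 on the latter. Ankrd37, an ankyrin repeat protein known as a hypoxia target, read 9.48, 9.27, 9.57 and 9.34 on the former and 8.12, 8.17, 8.65 and 8.49 on the latter. Pgam1 was at 13.31 to 13.37 on the former and at 12.94 to 13.09 on the latter. The chemokine gene Ccl3 went the other way, at 9.82 to 10.64 on arrays 13, 14, 17 and 18 and at 11.77 to 12.92 on the others. Over the whole set, arrays 13, 14, 17 and 18 did not overlap the other 4 of this line in 15 of the 34 genes, against 9.89% of all probe sets. They were higher in 13, which besides Bnip3, P4ha1, Ankrd37 and Pgam1 were Pfkl, Pfkm, Tpi1, Pgk1, Pkm, Pdk1, Egln1, Higd1a and Kdm3a, by 0.10 to 0.33. They were lower in Slc16a1 and in Ndrg1, a stress-responsive gene known to rise in hypoxia, which read 9.62 to 10.25 against 10.32 to 10.49. Vegfa was also lower, by 0.24 (-0.24), with overlap. The same numbers did not overlap the others in 5 genes of the parental line, 4 of the heterodimer line and 1 of the natural receptor line, against 5.91%, 5.66% and 4.35% of all probe sets. There Bnip3 went the opposite way, at 10.65 to 10.79 against 10.97 to 11.06 in the parental line and at 10.60 to 10.82 against 10.97 to 11.21 in the heterodimer line. Ankrd37 was higher on them in the heterodimer line too, at 8.70 to 8.83 against 8.34 to 8.56. The labels do not say what these numbers stand for, the arrays were grouped by their values in the IL-23R-only line, and no test was made of the split.

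Read number by number, without grouping, Bnip3 in the IL-23R-only line minus Bnip3 in the parental line was 1.391, 1.194, -0.043, -0.002, 1.177, 1.198, 0.165 and 0.184 on arrays 13 to 20. For P4ha1 these differences were 0.864, 0.621, -0.110, 0.126, 0.593, 0.474, 0.146 and 0.012. The level differences of both genes were thus uneven over the numbers. Hk2 differed by 0.75 to 1.77 and Slc2a1 by 0.73 to 1.30 over the 8 numbers, each above 0 on every one, as was Slc2a3 at 0.43 to 0.91 and Pgam1 at 0.14 to 0.66.

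**Figure D4:**
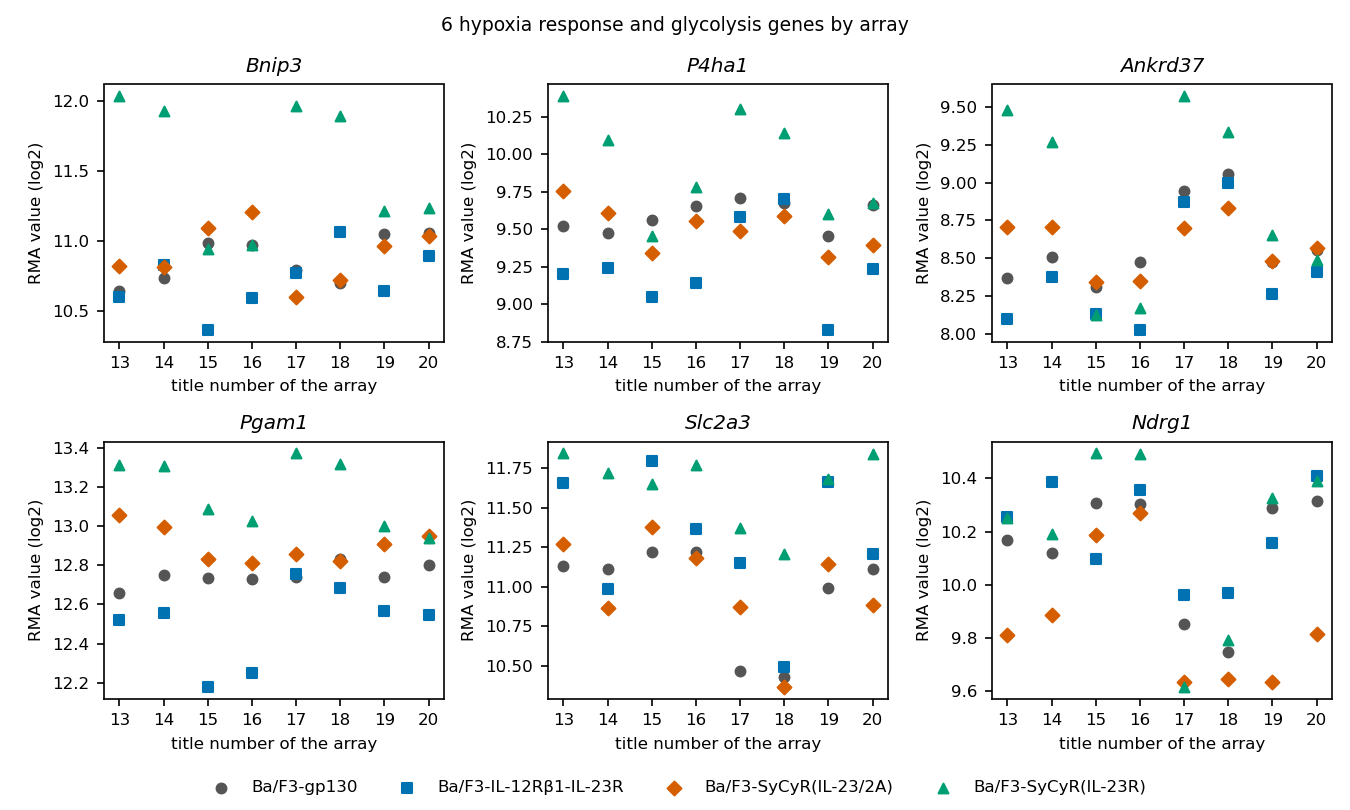
RMA values (log2) of 6 genes by title number of the array, 1 point per array, with colour and shape for the line. Bnip3, P4ha1, Ankrd37 and Pgam1 are high on arrays 13, 14, 17 and 18 of the IL-23R-only line, Bnip3 is lower on the same numbers of the parental and heterodimer lines, and Ndrg1 is lower on arrays 17 and 18 than on the other 6 in every line but the heterodimer line.

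Arrays 17 and 18 lay outside the range of the other 6 arrays of their line in 18 of the 34 genes in the parental line, 7 in the natural receptor line, 10 in the heterodimer line and 7 in the IL-23R-only line. Over all probe sets these shares were 22%, 8.99%, 7.33% and 15.2%, and the arrays were set apart after their values were seen, so no test was made. They were lower in 12 of the 18 genes of the parental line, Hk2 among them at 8.82 to 8.84 against 9.12 to 9.48. Pgk1 lay outside in all 4 lines, lower in 3 of them and higher in the IL-23R-only line. Slc2a3 was lower on both than on the other 6 arrays in the parental and IL-23R-only lines, and Ndrg1 in these and the natural receptor line. Slc2a3 read 10.47 and 10.43 on them in the parental line, where the other arrays spanned 10.99 to 11.22. Ndrg1 read 9.85 and 9.75 there against 10.12 to 10.31, and in the IL-23R-only line 9.62 and 9.79 against 10.19 to 10.49. Ankrd37 went up, to 8.95 and 9.06 in the parental line against 8.31 to 8.55. The granule gene Mpo was low on the same arrays of the parental line, at 8.72 and 8.74 against 9.80 to 10.05, and its part was not tested. Without arrays 17 and 18 of every line, Bnip3 still passed against the parental line in the IL-23R-only line (0.48, adjusted p = 0.039 from limma) and P4ha1 did not (0.28, adjusted p = 0.14).

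Of the 34 genes, 19 passed at least 1 of the 5 level comparisons and 15 passed none. Among the latter, Ldha had line medians of 13.74 to 13.81, Pgk1 of 12.91 to 13.08, Pfkl of 11.02 to 11.11, Egln1, the main oxygen-sensing prolyl hydroxylase, of 9.70 to 9.86, Higd1a of 9.37 to 9.49, Pfkfb3 of 8.64 to 8.79 and Vegfa of 9.49 to 9.79. Aldoc, Eno2, Egln3, Adm and P4ha2 had means under 7.04 and line medians of 5.54 to 6.81. That limit is a median of probe set means and not a detection limit, so whether these genes exceeded background was not tested. The brightest Hk1 probe set, with line medians of 13.58 to 13.76, lists 1 accession and no RefSeq transcript, and a further 16 probe sets share the Hk1 symbol with another gene, so its level is uncertain. The second Hk1 probe set was lower in the IL-23R-only line than in the parental line (-0.18, adjusted p = 0.016 from limma). The brightest Pkm probe set, for the muscle-type pyruvate kinase, did not pass in the natural receptor line against the parental line, whereas the second did (adjusted p = 0.0044). Pgk1 and Pgam1 have 3 probe sets each with the same accessions, some with identical values, so near-identical copies cannot be told apart.

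Lists of related genes outside the set were read for comparison, beside the shares over all probe sets. On odd arrays, 1.96% of all probe sets were higher and 1.16% lower in the natural receptor line. In the heterodimer line these shares were 0.846% and 0.107%, and in the IL-23R-only line 0.171% and 0.00427%. Of 49 further hypoxia genes measured, 2 were higher and 4 lower on odd arrays of the natural receptor line, led by Bhlhe40, a transcriptional repressor, at 1.84 (SE 0.22, adjusted p = 3.7e-07 from limma). Ddit4, an inhibitor of mTORC1 signalling and a hypoxia target, went the opposite way, at -1.28 (SE 0.12, adjusted p = 7.3e-09). In the heterodimer line 2 were higher and 1 lower, with Bhlhe40 at 0.93 and Ddit4 at -0.56, and in the IL-23R-only line and the parental line 0 passed. By level against the parental line, 5 were higher and 11 lower in the natural receptor line, 2 and 1 in the heterodimer line, and 9 and 3 in the IL-23R-only line, with Cited2, a competitor of HIF-1α for its coactivator, higher in all of them (0.95, 0.42 and 0.54). In the same order, 7.91% of all probe sets were higher and 10.5% lower, 3.04% and 4.24%, and 6.74% and 8.68%. Of probe sets above 7.04, 28.1%, 11% and 22.7% passed in these level comparisons, which also apply to the lists below. Of 32 further glycolysis and glycogen genes, 2 were higher on odd arrays of the natural receptor line, Slc2a4 at 0.29 and Slc16a7 at 0.26, and 1 was lower. Slc16a7 had a mean over all arrays of 4.965, under 7.04, and Slc2a4 one of 7.105, close to it. By level 6 and 2, 3 and 0, and 5 and 2 passed, and Slc2a6 and Slc16a6 were higher in the IL-23R-only line by 0.65 and 0.53. Of 31 genes of pyruvate entry and the TCA cycle, 4 and 1, 0 and 1, and 3 and 0 passed by level, and of 7 pentose phosphate genes 0 and 0, 1 and 0, and 1 and 0, the single one being Pgd.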

How the data were processed

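Expression Console (version not given in the sources used here) was used by the authors for RMA with sketch-quantile normalization. Each deposited value is a log2 signal of 1 probe set. The study's methods state 4 independent biological replicates, a limit of 1.5-fold and p of at most 0.01, and name no test. They do not describe the Ba/F3-gp130 arrays, so their p-values measure only the spread between the arrays at hand, which may be technical. The number of arrays limits the precision.

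Of 35556 probe sets, 21789 carry 1 symbol and 1621 several, and these 23410 were tested. Names came from the platform annotation, 21698 matched by gene identifier to GRCm38.p6. Contrasts of 8 cells (line by odd or even number) over all 32 arrays were fitted with limma 3.58.1 in R 4.3.3 and adjusted by Benjamini-Hochberg over all 23410. A gene passed at an adjusted p under 0.05. The step was tested on simulated data. Tables were made with Python 3.11.15, numpy 2.4.6, pandas 2.3.3 and matplotlib 3.10.9.

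The members, lists and split were chosen with earlier results of these data known. All members are named, each by its brightest probe set, and further pathway genes only as examples with the largest differences.

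Same-numbered arrays of all line pairs correlated above 0.1 in their deviations from the line-by-parity means (lowest 0.114), which made the numbers a pairing. It rests on these values alone, as no label explains the numbers. An odd array and the next even one of a line also correlated (0.251 to 0.814). No source used here says whether neighbours share a culture. With them as a random block more members passed between odd and even arrays of 2 lines, and fewer in 4 of the 5 level comparisons. Alternatives covered scaling, dim probe sets, prior, covariates, blocks, array weights and omitted arrays.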

Additional observations from a re-analysis of the deposited data

Results flagged for a closer look

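In 4 cases among the values of a gene over the 8 arrays of a line, 1 array lay far from the others. Chance marks about 1 in 20 such groups. The highest Slc16a3 value of the heterodimer line was 7.836 on array 15, the next 7.613. The highest Pfkp value of the parental line was 12.029 on array 13, the next 11.917. The lowest Hif1a value of the IL-23R-only line was 10.708 on array 15, the next 10.93. The lowest Egln3 value of the heterodimer line was 5.327 on array 20, under the median of all probe sets.

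The odd-even difference of Slc2a1 in the IL-23R-only line differed from that in the heterodimer line by -0.707 on the log2 scale (adjusted p = 0.011 from limma).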

How the results depend on the processing

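Counts of genes passing limma are given here. The share of all probe sets passing is not given for the alternative fits, so a changed count is not a result about these genes. Level counts against the parental line were 10 in the natural receptor line, 6 in the heterodimer line and 11 in the IL-23R-only line, with 11 between the heterodimer and the natural line and 8 between the SyCyR lines. In that order they were 5, 1, 7, 7 and 3 on even arrays alone and 6, 2, 6, 4 and 0 on odd arrays alone, where fewer arrays enter. The level difference of Slc2a1 in the natural receptor line turned from 0.38 to -0.066 on even arrays (adjusted p = 0.81). Centring gave 7 in the IL-23R-only line, as did adjacent numbers within a line as a random block. Array weights gave 11 in the heterodimer line. Without arrays 17 and 18 the SyCyR lines differed in 5. Leaving out 1 array gave 7 to 11, 6, 7 to 11, 9 to 14 and 6 to 9.

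Odd against even arrays gave 2 genes in the natural receptor line, 4 with the replicate block (random), 6 with adjacent numbers as a fixed or a random block and 4 without arrays 17 and 18. The heterodimer line gave 2, and 3 with adjacent numbers fixed. In the IL-23R-only line 0 became 1 with each of these blocks. The comparison of that difference between the SyCyR lines gave 1 gene, 2 with the replicate block (random or fixed) or adjacent numbers fixed, and 0 with centring, with the other lines left out of the fit, without arrays 17 and 18, and without arrays 15, 16, 19 and 20 of the IL-23R-only line. Those arrays were left out by their values, in 1 line only, so that fit supports nothing. Leaving out 1 array gave 2 to 4 in the natural receptor line, 2 in the heterodimer line, 0 to 1 in the IL-23R-only line, 0 in the parental line, 0 between the heterodimer and the natural line and 1 between the SyCyR lines. The cause of these shifts was not tested. The replicate block, which is the title number, removed no call of the main comparisons. Adjacent numbers within a line as a random block did remove level calls. In the IL-23R-only line against the parental line P4ha1, Pfkm, Pdk1 and Pfkp were lost. Car9, P4ha1 and Pfkm were lost in the natural receptor line against the parental line. Ndrg1 was lost between the heterodimer and the natural line, and Kdm3a between the SyCyR lines. Of 837 values of single genes under other settings, 723 kept direction and call, 113 lost the call and 1 turned. With 1 array left out it was 689 and 95 of 784. Even arrays alone, odd arrays alone, blocks within a line, the omission of arrays of the IL-23R-only line and the probe set with the most accessions were chosen after seeing the data.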
